A study of Homo sapiens with 16 samples.

Results

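The genes described are 40 genes of mitosis and its spindle checkpoint, whose transcripts were counted by RNA-seq before and after hydrogen peroxide in the T cell line Jurkat E6-1. They were chosen by symbol, as a list of genes known to act in cell division, with earlier results of these data known. The symbols were matched to the gene identifiers of the count tables, and all 40 were found among the 60662 identifiers. All 40 were also among the 14092 genes with enough reads to be tested. In peroxide-treated cells 10 of the 40 were higher than in controls, 9 were lower and 21 did not pass the test, where 24.1% of all tested genes were higher and 24.3% lower. None of the 40 changed as much as 2-fold, and the largest differences were CKS2, higher by 0.63 ± 0.10 on the log2 scale, and SPC24, lower by 0.66 ± 0.09 (SE of 8 against 8 libraries). In untreated cells, 30 of the same 40 were lower in the second batch of libraries than in the first, where 20.5% of all tested genes were.

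Cells enter mitosis when CDK1, a kinase, is activated by cyclins A and B and by CDC25 phosphatases, with help from Polo and Aurora kinases. Kinetochores, the protein plates on centromeres, attach chromosomes to the microtubules of the spindle. The spindle checkpoint holds division until attachment is complete, by keeping CDC20 from switching on the anaphase-promoting complex, a ubiquitin ligase that marks securin and cyclins for destruction. Most of these genes are transcribed in a wave in G2 phase and mitosis, so their level in a growing culture reflects, among other things, how many cells are in those phases. In bulk RNA, a smaller share of dividing cells and less RNA per dividing cell cannot be told apart.

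Jurkat E6-1 is an established human T cell line, wild type in all libraries, and the labels give its cell type as lymphoma. The control group is 8 libraries of untreated cells at 0 h. The peroxide group is 8 libraries of cells moved into phosphate-buffered saline and given 10 µM hydrogen peroxide per 1000000 cells, which were collected at 4 h. Untreated cells held in saline for 4 h were not analysed here, so the time, the change of medium and the peroxide cannot be told apart. The libraries are called biological replicates in the labels, with no statement that they came from separate cultures, so p-values may measure only the spread between these samples. The names of the deposited tables split them into batch 1 and batch 2, each with 4 libraries of each group. The labels do not say how the batches differ.

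Reads in genes numbered 5556553 to 15720881 per library, and 39735 to 93272 of these fell on the 40 genes. Controls had 0.659% ± 0.0761 (SD, n = 8) of their reads in genes on the 40, and peroxide libraries 0.603% ± 0.0488 (SD, n = 8). Reads not aligned uniquely made up 34.1% ± 5.43 of counted reads in controls and 38.3% ± 4.33 after peroxide, and their part in the results was not tested beyond leaving out the 2 libraries with most of them. All 12 T cell markers examined had a mean of 1 CPM (read counts per 1000000 reads in genes, with TMM scaling) or more. Their summed level was 2860 to 3837 CPM in controls and 2931 to 3793 CPM after peroxide. Of the 12, 4 were called lower after peroxide (CD3G, CD2, LAT and CD28) and 0 higher, against 24.3% and 24.1% of all tested genes. Of 8 B cell markers CD79A and BLK reached that level, and the list summed to 50.9 to 95.4 CPM in controls and 53.7 to 98.9 CPM after peroxide. Of 8 epithelial and fibroblast markers COL1A1 did, with EPCAM, CDH1 and COL1A2 at 0 reads in all libraries and sums of 3.18 to 4.74 CPM and 2.88 to 6.85 CPM. The sum of 8 myeloid markers, of which CD14 and ITGAM reached 1 CPM and none was at 0 reads, was 0.499 to 1.25 CPM in controls and 4.77 to 16.4 CPM after peroxide. Its part in the results was not tested.

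The promoters of these genes have been described as carrying CCAAT boxes, bound by the factor NF-Y, and a cell cycle genes homology region. Both were searched as plain letters in RefSeq windows of 250 bases before to 50 bases after each gene start (GRCh38.p14). The CCAAT box was CCAAT or its reverse complement ATTGG, and the homology region was TTTGAA, its reverse complement TTCAAA or the palindrome TTCGAA, letters that do not overlap with a CCAAT box in the sequences below. The table held 44 windows for 34 of the 40 genes. A CCAAT box was in 75.0% of these windows, against 34.6% of all 35116 windows in the table. The homology region letters were in 65.9% against 16.4%, and both were in 54.5% against 6.38%. Among windows of tested genes the shares were 34.6%, 11.7% and 4.65%. These are matches of letters and not sites shown to be bound. The promoters of 4 members are printed because the results below turn on these genes. SPC24 had the smallest p of the 40, CCNB1 encodes the main mitotic cyclin, and CDC20 and PLK1 changed differently in the 2 batches. The 250 bases before the start are given 5′ to 3′ on the gene's strand, in lower case with the matches in capitals.
SPC24 promoter, chr19:11155783-11156032, minus strand: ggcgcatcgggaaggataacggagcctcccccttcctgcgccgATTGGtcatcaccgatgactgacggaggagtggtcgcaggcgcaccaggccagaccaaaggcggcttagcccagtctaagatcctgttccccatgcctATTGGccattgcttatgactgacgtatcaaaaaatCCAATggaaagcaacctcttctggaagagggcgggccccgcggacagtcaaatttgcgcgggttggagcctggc
CCNB1 promoter, chr5:69166900-69167149, plus strand: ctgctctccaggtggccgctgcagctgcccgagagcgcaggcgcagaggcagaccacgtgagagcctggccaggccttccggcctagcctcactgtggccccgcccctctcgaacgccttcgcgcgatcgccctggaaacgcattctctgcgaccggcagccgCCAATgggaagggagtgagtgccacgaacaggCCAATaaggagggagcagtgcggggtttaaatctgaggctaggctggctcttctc
CDC20 promoter, chr1:43358731-43358980, plus strand: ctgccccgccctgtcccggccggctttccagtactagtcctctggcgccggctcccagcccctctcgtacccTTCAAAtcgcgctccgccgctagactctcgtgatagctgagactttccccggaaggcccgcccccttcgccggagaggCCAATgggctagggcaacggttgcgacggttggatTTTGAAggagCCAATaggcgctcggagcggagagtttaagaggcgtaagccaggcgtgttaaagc
PLK1 promoter, chr16:23678639-23678888, plus strand: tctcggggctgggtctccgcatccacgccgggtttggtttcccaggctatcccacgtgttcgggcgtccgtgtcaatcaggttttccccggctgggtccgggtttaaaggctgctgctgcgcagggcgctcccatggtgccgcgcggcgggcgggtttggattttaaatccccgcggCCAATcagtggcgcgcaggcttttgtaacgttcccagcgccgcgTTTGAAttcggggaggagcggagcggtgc
The SPC24 window shows 3 CCAAT boxes and no homology region letters, and CCNB1 shows 2 and none. CDC20 has 2 of each, with one homology region starting 65 bases before the start and a CCAAT box 55 bases before it. PLK1 has 1 of each, at 73 bases before the start for the CCAAT box and 29 for the homology region.

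Against controls, 24.1% of all tested genes were called higher after peroxide and 24.3% lower, in edgeR's quasi-likelihood test with Benjamini-Hochberg adjustment over all 14092 genes (called at adjusted p under 0.05, batch as a term). The 40 members had 10 called higher and 9 lower, shares near that background. Their median log2 fold change was -0.003, beside -0.015 over the whole table, with a range from -0.66 to 0.63. Only SPC24 had all 8 peroxide libraries below all 8 controls, and no member had them all above. Over all genes, 4.49% lay entirely below and 6.76% entirely above. With libraries scaled by their total counts instead, 7 members were higher and 13 lower, and over all genes 2809 were higher and 4414 lower in place of 3391 and 3418. Under that scaling CDCA8, MAD2L1 and PRC1 did not pass, and CDC25C, BUB1B, KIF20A and ANLN were called lower.

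**Figure D1:**
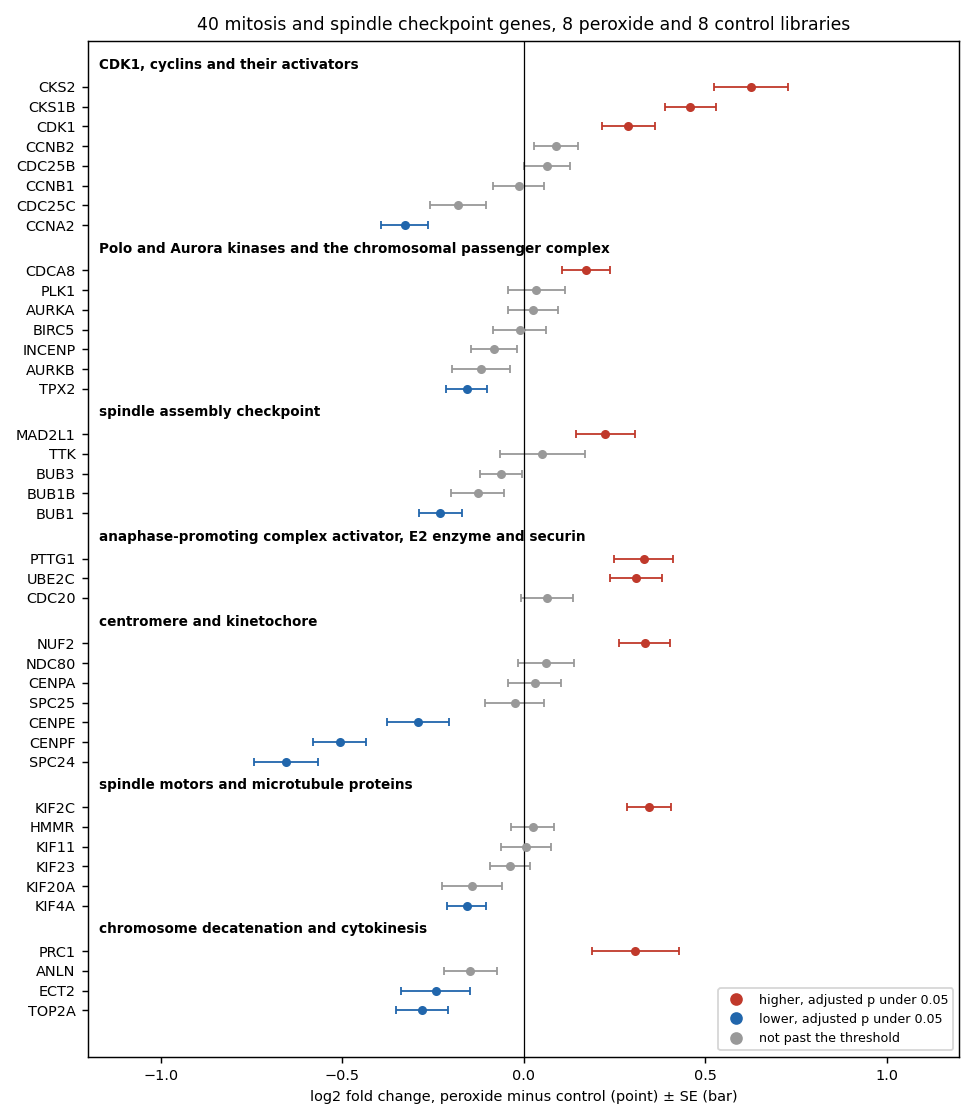
Log2 fold change of each of the 40 genes, peroxide minus control (x axis, point), with its SE (bar), grouped by role (y axis); red is higher, blue is lower and grey did not pass the test. Most role groups hold genes on both sides of 0, from CKS2 at 0.63 to SPC24 at -0.66.

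Of the 8 genes that encode CDK1, its cyclins and its activators, 3 rose, 1 fell and 4 did not pass. CDK1, the kinase itself, had a lowest, median and highest level of 162, 192 and 257 CPM in the 8 controls and 212, 238 and 341 CPM in the 8 peroxide libraries. The groups overlapped, with most of the higher values in each from batch 1, and CDK1 rose by 0.29 ± 0.07 on the log2 scale (adjusted p = 0.0026 by edgeR). CKS1B, a small adaptor subunit of cyclin-dependent kinases, ranged from 14.6 to 26.7 CPM in controls (median 19.7) and from 19.6 to 37.2 CPM after peroxide (median 28.5). Within each batch its peroxide libraries all lay above the controls, and it rose by 0.46 ± 0.07 (edgeR adjusted p = 1.54e-05). Its paralog CKS2 rose by 0.63 ± 0.10, from 114 ± 53.2 to 166 ± 46.3 CPM (SD, n = 8 each). CKS1B has several near-identical processed copies, of which CKS1BP6 held 48 reads over all libraries beside 3515 for CKS1B, so its level is uncertain.

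The cyclins of this group did not move together. CCNA2, cyclin A2, fell by 0.33 ± 0.06 on the log2 scale, from 168 ± 24.4 to 132 ± 10.3 CPM (SD, n = 8 each; edgeR adjusted p = 0.000262). CCNB1, cyclin B1, ranged from 152 to 323 CPM in controls (median 230.0) and from 159 to 297 CPM after peroxide (median 224). Each group held 4 high and 4 low libraries, which are batch 1 and batch 2, and the log2 fold change was -0.01 ± 0.07 with a 95% interval from -0.15 to 0.12. CCNB2, cyclin B2, was at 0.09 ± 0.06. The phosphatases that remove inhibitory phosphates from CDK1 did not pass, CDC25B at 0.06 ± 0.06 and CDC25C at -0.18 ± 0.08 (edgeR adjusted p = 0.0551).

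Among 7 genes for Polo and Aurora kinases and the chromosomal passenger complex, 1 rose, 1 fell and 5 did not pass. TPX2, which activates Aurora A and builds spindle microtubules, had lowest, median and highest levels of 332, 373 and 445 CPM in controls and 291.5, 334 and 385 CPM after peroxide. The ranges overlapped, and TPX2 fell by 0.16 ± 0.06 on the log2 scale (edgeR adjusted p = 0.0248). CDCA8, encoding the passenger protein borealin, rose by 0.17 ± 0.07 (edgeR adjusted p = 0.0392). PLK1, Polo-like kinase 1, ranged from 107 to 189 CPM in controls (median 146) and from 125 to 165 CPM after peroxide (median 143), so its peroxide libraries lay inside the control range. Its log2 fold change was 0.03 ± 0.08, with a 95% interval from -0.12 to 0.19. BIRC5, which encodes the passenger protein survivin, ranged from 137 to 205 CPM (median 160.1) and from 139.5 to 178 CPM (median 159), a log2 fold change of -0.01 ± 0.07. The kinase genes AURKA and AURKB were at 0.03 ± 0.07 and -0.12 ± 0.08, and INCENP, the scaffold of the passenger complex, at -0.08 ± 0.06.

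Of the 5 spindle assembly checkpoint genes, 1 rose, 1 fell and 3 did not pass. BUB1, a checkpoint kinase at kinetochores, ranged from 234 to 380 CPM in controls (median 287) and from 201 to 329 CPM after peroxide (median 247). It fell by 0.23 ± 0.06 on the log2 scale (edgeR adjusted p = 0.00277). MAD2L1, which encodes the MAD2 protein that binds and inhibits CDC20, rose by 0.22 ± 0.08 (edgeR adjusted p = 0.0274), from 114 ± 22.6 to 131 ± 20.9 CPM (SD, n = 8 each). TTK, the checkpoint kinase MPS1, spanned 92.0 to 135 CPM in controls (median 120.1) and 90.0 to 180.0 CPM after peroxide (median 117). Its peroxide range enclosed the control range, and its log2 fold change of 0.05 ± 0.12 has a 95% interval from -0.18 to 0.28, among the widest of the 40. BUB1B, the checkpoint protein BUBR1, was at -0.13 ± 0.07 and BUB3, its partner, at -0.06 ± 0.06.

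The anaphase-promoting complex is represented by its activator, its ubiquitin-conjugating enzyme and its target securin, and 2 of these 3 genes rose. UBE2C, the enzyme, ranged from 50.8 to 98.7 CPM in controls (median 68.8) and from 59.0 to 117 CPM after peroxide (median 85.5). It was higher after peroxide within each batch on average, by 0.31 ± 0.07 on the log2 scale over both (edgeR adjusted p = 0.00123). PTTG1, securin, which holds separase inactive until anaphase, rose by 0.33 ± 0.08, from 78.9 ± 26.2 to 96.5 ± 23.0 CPM (SD, n = 8 each; edgeR adjusted p = 0.0019). CDC20, the activator, ranged from 146 to 255 CPM in controls (median 197) and from 166 to 234 CPM after peroxide (median 206), with all peroxide libraries inside the control range. Its log2 fold change was 0.06 ± 0.07, with a 95% interval from -0.08 to 0.20. Copies of CDC20 and UBE2C also held reads, so the levels of both genes are uncertain. Over all libraries CDC20P1 held 558 reads beside 29871 for CDC20, and UBE2CP5 held 261 beside 11648 for UBE2C.

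Among 7 centromere and kinetochore genes, 1 rose, 3 fell and 3 did not pass. The genes of the NDC80 complex, 4 proteins that form the kinetochore's main link to microtubules, did not share a direction. SPC24 had lowest, median and highest levels of 49.3, 58.6 and 75.0 CPM in controls and 29.1, 36.8 and 44.5 CPM after peroxide. All peroxide libraries lay below all controls, and SPC24 fell by 0.66 ± 0.09 on the log2 scale (edgeR adjusted p = 2.71e-06). NUF2, another subunit of the complex, rose by 0.33 ± 0.07, from 102 ± 12.0 to 130 ± 21.3 CPM (SD, n = 8 each; edgeR adjusted p = 0.000502). SPC25, which binds SPC24 directly, ranged from 30.7 to 49.7 CPM in controls (median 37.8) and from 27.4 to 50.8 CPM after peroxide (median 35.7), a log2 fold change of -0.03 ± 0.08. NDC80 itself was at 0.06 ± 0.08.

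Both large coiled-coil proteins of the outer kinetochore had lower transcripts. CENPF fell by 0.51 ± 0.07 on the log2 scale, from 509.6 ± 95.1 to 362 ± 91.2 CPM (SD, n = 8 each; edgeR adjusted p = 6.13e-06). CENPE, a kinesin that moves chromosomes to the spindle equator, fell by 0.29 ± 0.09 (edgeR adjusted p = 0.00798). CENPA, the histone variant that marks centromeres, was at 0.03 ± 0.07.

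Of 6 spindle motor and microtubule genes, 1 rose, 1 fell and 4 did not pass. KIF2C, a kinesin that takes microtubule ends apart, ranged from 143 to 226 CPM in controls (median 175) and from 181 to 279.5 CPM after peroxide (median 227). The groups overlapped across batches, and KIF2C rose by 0.34 ± 0.06 on the log2 scale (edgeR adjusted p = 6.89e-05). KIF4A, a chromosome-bound kinesin, fell by 0.16 ± 0.05 (edgeR adjusted p = 0.0206). KIF11, the Eg5 motor that pushes spindle poles apart, ranged from 205 to 243 CPM in controls (median 221) and from 199 to 279 CPM after peroxide (median 214). With 0.01 ± 0.07 it was the member nearest to no change, with a 95% interval from -0.13 to 0.14. KIF20A, KIF23 and HMMR were at -0.14 ± 0.08, -0.04 ± 0.05 and 0.02 ± 0.06.

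Of 4 genes for chromosome decatenation and cytokinesis, 1 rose, 2 fell and 1 did not pass. TOP2A, the topoisomerase that untangles sister chromatids, had lowest, median and highest levels of 574, 717 and 1005 CPM in controls and 477, 584 and 737 CPM after peroxide. It fell by 0.28 ± 0.07 on the log2 scale (edgeR adjusted p = 0.0026). Its fold change was -0.45 in batch 1 alone and -0.11 in batch 2 alone, a difference that did not pass the test between batches (adjusted p = 0.0932). ECT2, which activates the small GTPase RHOA at the division plane, fell by 0.24 ± 0.09 (edgeR adjusted p = 0.0378). ANLN, the scaffold protein anillin of the contractile ring, ranged from 79.5 to 138 CPM (median 99.1) in controls and from 75.2 to 128 CPM (median 85.6) after peroxide, and its -0.15 ± 0.07 did not pass. PRC1, which bundles midzone microtubules, rose by 0.31 ± 0.12 (edgeR adjusted p = 0.0402), from 10.2 ± 3.09 to 12.3 ± 2.14 CPM (SD, n = 8 each). In GENCODE release 29, 58.4% of the exon bases of PRC1 are also exon of another gene, AC068831.7 or PRC1-AS1. Its count is therefore uncertain, while no other member shared as much as 20% of its exon bases.

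**Figure D2:**
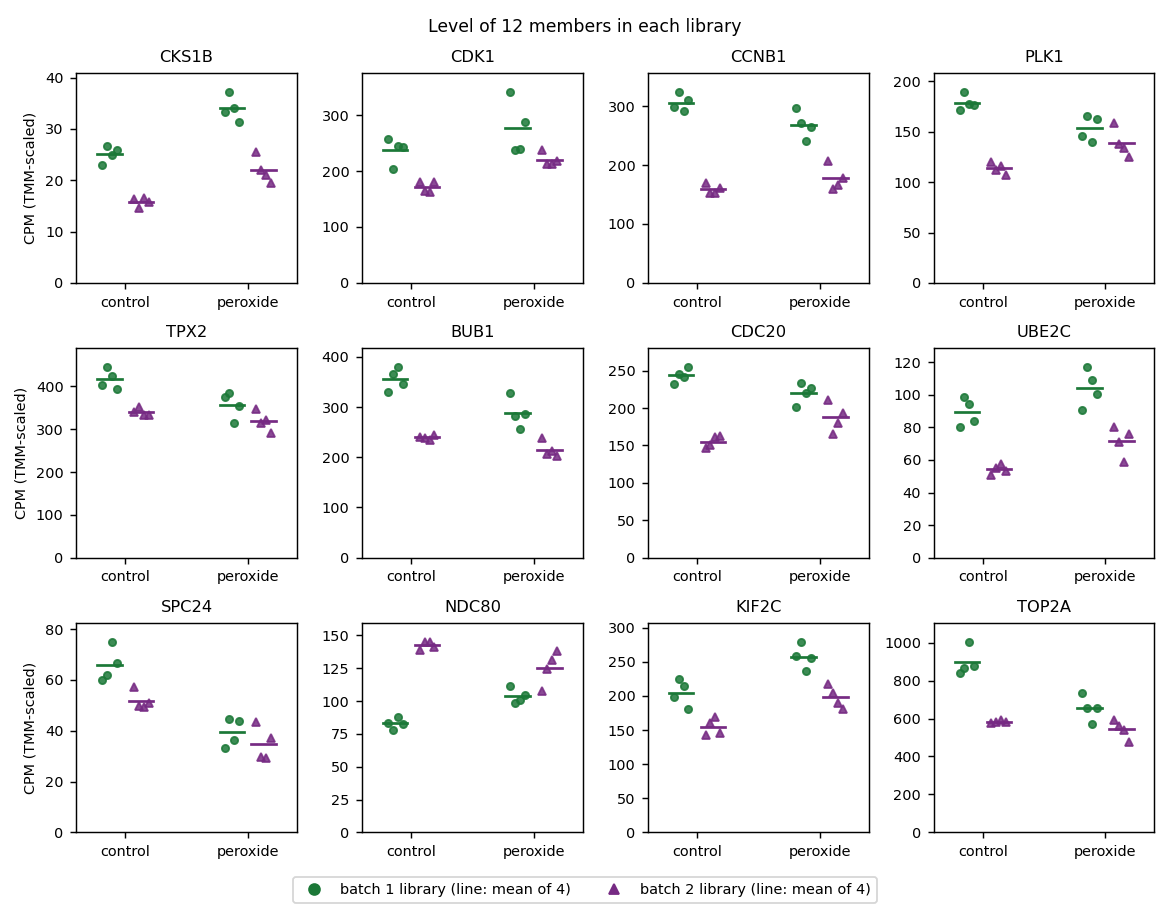
Level of 12 of the genes in each library, in TMM-scaled CPM (y axis, from 0), for controls and peroxide (x axis), with circles for batch 1, triangles for batch 2 and a line at the mean of each 4 libraries. SPC24 is lower in all 8 peroxide libraries, while PLK1, CDC20 and NDC80 move towards the other batch's level from their own control level.

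Leaving out 1 library at a time kept 14 of the 19 calls in each of 16 fits. TPX2 was lost without peroxide library 3 (edgeR adjusted p = 0.0602). MAD2L1 was lost without control 2, 6 or 7 or peroxide 1, 5 or 8, with an adjusted p of at most 0.0684. ECT2 was lost without control 3, 4 or 5 or peroxide 2, 3, 5, 7 or 8, with an adjusted p of at most 0.0830. PRC1 was lost without control 1, 5, 6, 7 or 8 or peroxide 2, 5 or 7, with an adjusted p of at most 0.104. CDCA8 was called in 5 of the 16 fits only, without control 2 or 3 or peroxide 1, 3 or 4, and reached 0.0919 in the others. The members gained were CDC25C without control 1 or 4 or peroxide 2, 4 or 7 (lowest adjusted p = 0.0266), ANLN (0.0378) and BUB1B (0.0408) without peroxide 1, and INCENP without peroxide 5 (0.0439).

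The peroxide difference was then taken in each batch alone, 4 libraries against 4. In batch 1, 5 members were higher and 8 lower, against 20.4% and 17.2% of 14017 genes. In batch 2, 13 were higher and 7 lower, against 19.4% and 19.1% of 14444 genes. CKS1B, CKS2, NUF2 and KIF2C were called higher in both batches, and CCNA2, CENPF and SPC24 lower in both. No member was called in opposite directions by edgeR, but at an unadjusted p under 0.05 PLK1, BIRC5 and NDC80 had opposite signs in the 2 batches. Of the 19 members called over both batches, 18 had the same sign in each, the exception being CDCA8 with -0.01 in batch 1 and 0.35 in batch 2. Of the 21 not called, 7 had the same sign in each.

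The difference between the batches in the peroxide effect was tested as an interaction, which was called for 4.88% of all tested genes and for 5 of the 40 members. PLK1 differed by 0.51 ± 0.11 on the log2 scale (edgeR adjusted p = 0.0131). In batch 1 its controls were at 172, 189, 178 and 176 CPM and its peroxide libraries at 146, 165, 139 and 163 CPM. In batch 2 its controls were at 120.1, 112, 116 and 107 CPM and its peroxide libraries at 159, 138, 133 and 125 CPM. The PLK1 groups thus separate within each batch, downwards in batch 1 and upwards in batch 2, and the peroxide libraries of both batches lie between the 2 sets of controls. The same holds in part for BIRC5 (0.44 ± 0.11, edgeR adjusted p = 0.0223), CDC20 (0.42 ± 0.11, 0.0293) and KIF20A (0.49 ± 0.12, 0.0278).

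NDC80 differed between batches in the other direction, by -0.51 ± 0.11 (edgeR adjusted p = 0.00973). Its batch 1 controls were at 83.5, 77.8, 87.9 and 82.6 CPM and the peroxide libraries at 112, 98.5, 100.5 and 104 CPM. In batch 2 its controls were at 139, 145, 145 and 141 CPM and the peroxide libraries at 107, 125, 131 and 138 CPM. The NDC80 peroxide libraries were all above the controls in batch 1 and all below them in batch 2. PLK1 and NDC80 were called without each single library. BIRC5 was not called without control 6 or peroxide 5 (adjusted p up to 0.0555). CDC20 was not called without control 4, 5 or 6 or peroxide 1, 3 or 5 (up to 0.0713), nor KIF20A without control 5, 7 or 8 or peroxide 3, 4 or 5 (up to 0.0696). The member count was 3 without control 5 or 6 or peroxide 3, and 2 without peroxide 5.

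**Figure D3:**
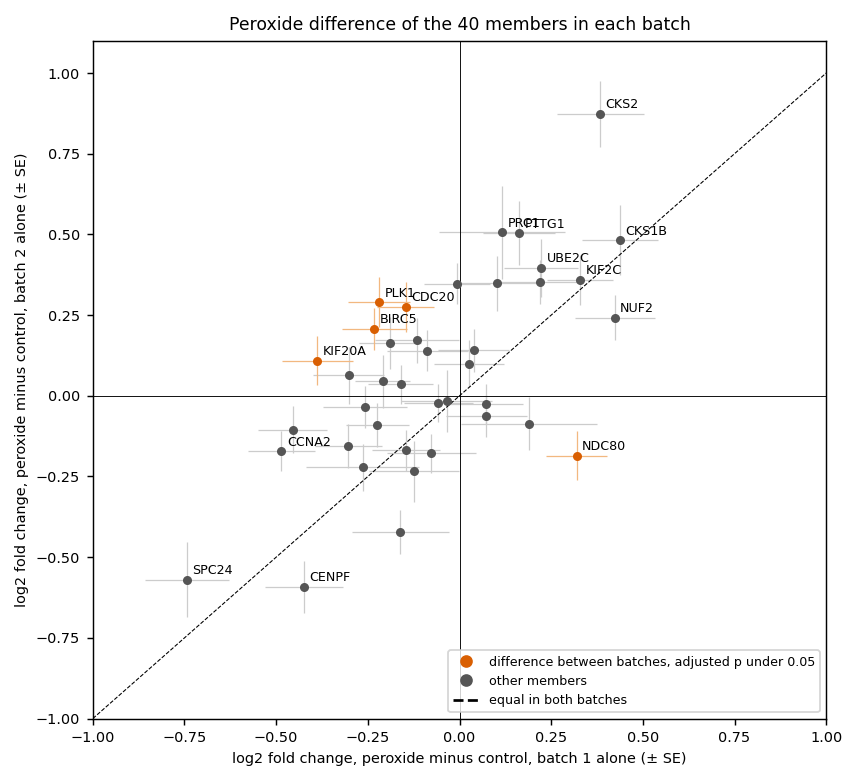
Log2 fold change, peroxide minus control, of the 40 genes in batch 1 alone (x axis) and batch 2 alone (y axis), each with its SE; orange marks the 5 genes whose difference between batches passed the test. SPC24, CENPF, CKS1B, CKS2, NUF2 and KIF2C lie on the same side of 0 in both, while PLK1, CDC20, BIRC5 and KIF20A lie at upper left and NDC80 at lower right.

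Untreated cells of the 2 batches differed more for these genes than untreated and treated cells did. In controls, batch 2 against batch 1, 22.1% of all tested genes were called higher and 20.5% lower, while 1 member was higher and 30 were lower. The median over the 40 members was -0.42 on the log2 scale, against 0.01 over all genes tested. Scaling by total counts instead of TMM factors raised the all-gene median by 0.12. Under it 2 members were higher and 25 lower with a median of -0.29, and over all genes 4453 were higher and 1857 lower in place of 3119 and 2883. For 36 of the 40 members the batch difference in controls was larger in size than the peroxide difference. This count was not taken over all tested genes, so it has no background to be read beside. The sizes are also not measured alike, because the batch difference rests on fewer libraries. The peroxide difference is an average over both batches, in which effects of opposite sign can cancel. CKS2 was lower in batch 2 controls by 1.22 ± 0.12 (edgeR adjusted p = 2.09e-07 for the difference of -1.22), from 117, 191, 165 and 164 CPM to 57.5, 73.5, 73.2 and 67.3 CPM. CCNB1, at -0.95 ± 0.08, was at 298, 323, 291 and 309 CPM in batch 1 controls and at 169, 153, 152 and 160.3 CPM in batch 2 controls. PTTG1 and KIF20A followed at -0.90 ± 0.10 and -0.90 ± 0.09. NDC80 was the member called higher in batch 2 controls, by 0.78 ± 0.08. In the controls of batches 1 and 2, KIF11 (-0.02 ± 0.10), HMMR (-0.03 ± 0.08) and TTK (0.07 ± 0.16) differed by less than their SE.

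The summed level of the 40 genes shows the same pattern in the libraries. The 4 batch 1 controls held 7084 to 7873 CPM and the batch 2 controls 5454 to 5608 CPM. The batch 1 peroxide libraries held 6137 to 7316 CPM, and those of batch 2 held 5415 to 5991 CPM. The 2 batches of controls did not overlap and lay further apart than the peroxide and control libraries of either batch.

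**Figure D4:**
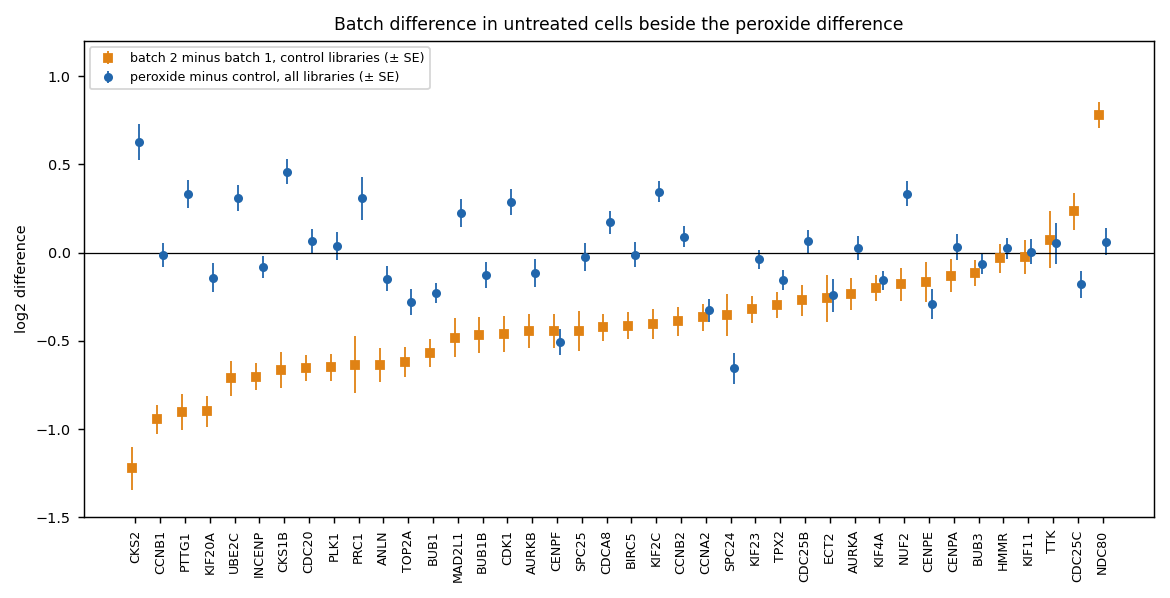
For each of the 40 genes (x axis, ordered by the batch difference), the log2 difference of batch 2 minus batch 1 in control libraries (orange squares) and of peroxide minus control (blue circles), each with its SE (y axis). The orange squares run from -1.22 for CKS2 to 0.78 for NDC80, while the blue circles stay between -0.66 and 0.63.

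Members that rose had a shorter median transcript than members that fell, a property looked at after the values had been seen. Length was that of the protein-coding transcript with the longest coding sequence in GENCODE release 29. The 10 members that rose had 613 to 5468 bases (median 1958), and the 9 that fell had 633 to 10307 bases (median 4158). CKS2 (613 bases), CKS1B (759), UBE2C (850) and PTTG1 (1070) are among the shortest and rose. CENPF (10307), CENPE (8612) and TOP2A (5758) are among the longest and fell, while SPC24 (633 bases) is short and fell and MAD2L1 (5468) is long and rose. Over all tested genes with a protein-coding transcript, the median was 2622 bases for those called higher and 4096.5 bases for those called lower. Across the 40 genes, which share the same libraries, Spearman's rho between length and log2 fold change was -0.50, with -0.35 in batch 1 alone and -0.49 in batch 2 alone. Across 11803 tested genes with such a transcript it was -0.24, and genes are not independent replicates. For the batch difference in controls, rho was 0.25 over the members and 0.05 over all genes. The part of length, or of RNA quality, in the peroxide difference was not tested.

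**Figure D5:**
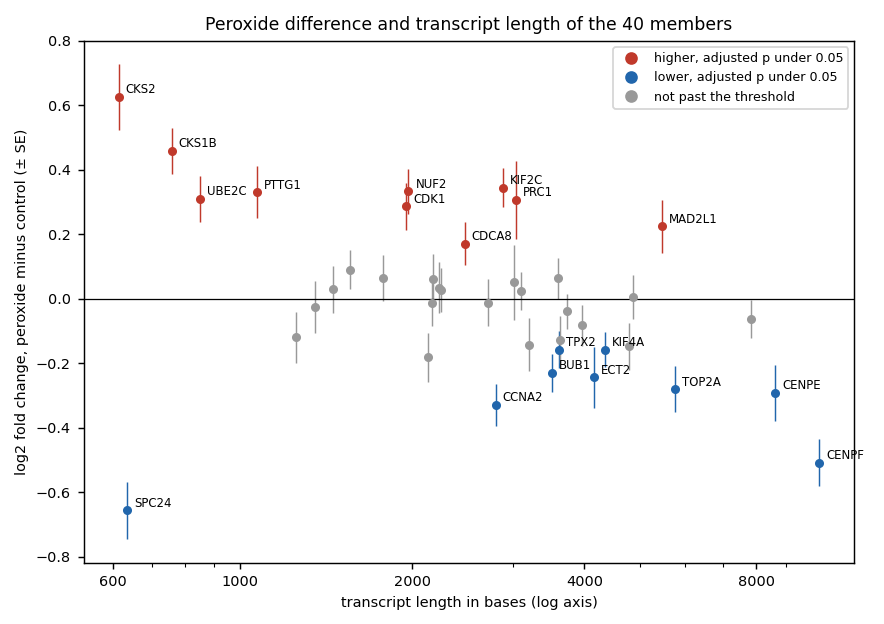
Log2 fold change, peroxide minus control, with its SE (y axis) against transcript length in bases (x axis, log scale) for the 40 genes; red is higher, blue is lower and grey did not pass. The short CKS2, CKS1B, UBE2C and PTTG1 lie above 0 and the long TOP2A, CENPE and CENPF below, with SPC24 at lower left as an exception.

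Further genes of the same processes were examined in 9 lists of 143 genes outside the 40, of which 139 were tested, and in a list of S phase genes given last. Of the 139 genes 37 were higher and 25 lower, and the median was 0.004 on the log2 scale. Over all tested genes 24.1% were higher and 24.3% lower, and with total counts 2809 genes were higher and 4414 lower. The counts of each list below are to be read beside these. The list of brakes and phosphatase control of mitotic entry had 10 of 16 tested genes higher and none lower by edgeR. DESeq2 and an unadjusted p under 0.05 gave the same counts, and total counts gave 9 higher and 1 lower. The 10 were not all brakes, and included MASTL, ENSA, PPP2R2A and PPP2R2D. CDKN1A, which encodes the kinase inhibitor p21, rose from 1.07 ± 0.271 to 15.0 ± 4.97 CPM (SD, n = 8 each), by 3.73 ± 0.21 on the log2 scale. GADD45B, a stress protein that can inhibit CDK1, rose by 3.57 ± 0.24 and the stress-induced Polo-like kinase PLK3 by 1.35 ± 0.12. WEE1, the kinase that inhibits CDK1, did not pass at -0.08 ± 0.06.

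Of 17 genes for subunits and regulators of the anaphase-promoting complex, 3 were higher and 2 lower, and with total counts 2 and 5. UBE2S, the enzyme that extends the ubiquitin chains started by UBE2C, rose by 1.15 ± 0.12 on the log2 scale, from 104 ± 22.0 to 230.4 ± 38.7 CPM (SD, n = 8 each). FBXO5, which encodes the inhibitor EMI1, rose by 0.49 ± 0.08, and ANAPC1, the largest subunit, fell by 0.33 ± 0.07. Of 19 inner kinetochore and KNL1-MIS12 genes, 7 were higher and 2 lower (7 and 5 with total counts). MIS12 rose by 1.55 ± 0.15, from 64.5 ± 4.92 to 189 ± 64.8 CPM, CENPN by 0.58 ± 0.07 and PMF1 by 0.52 ± 0.07.

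In 11 further checkpoint and kinetochore-microtubule genes tested, none was called higher by edgeR (also none by DESeq2 or at an unadjusted p under 0.05) and 2 were lower (3 with total counts), KNSTRN by -0.19 ± 0.07 and SKA3 by -0.16 ± 0.07, while TRIP13 at -0.16 ± 0.07 did not pass. Of 20 further motor and spindle genes 3 were higher and 7 lower (1 and 10 with total counts), with KIF22 at 0.34 ± 0.06, CKAP5 at -0.30 ± 0.06 and CIT at -0.24 ± 0.06. Of 16 cohesin genes (0 higher and 6 lower with total counts) 1 was higher, RAD21 by 0.20 ± 0.07, and 2 lower, ESPL1 (separase) by -0.30 ± 0.06 and SMC1A by -0.14 ± 0.05. Of 8 condensin genes 3 were higher and 1 lower (3 and 2 with total counts), with NCAPH2 at 0.27 ± 0.05, NCAPH at 0.26 ± 0.06 and NCAPD3 at -0.30 ± 0.06. Of 12 centrosome genes 3 were higher and 2 lower (2 and 4 with total counts), with NEK2 at 0.33 ± 0.06, NDE1 at -0.36 ± 0.06 and CEP192 at -0.34 ± 0.08.

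Of 20 transcription regulators of G2 and M phase genes, 7 were higher and 7 lower (6 and 7 with total counts). NFYA, a subunit of the factor that binds CCAAT boxes such as those printed above, fell by 0.44 ± 0.06 on the log2 scale, from 164 ± 27.0 to 120.0 ± 16.4 CPM (SD, n = 8 each). NFYB and NFYC, which encode the other subunits of that factor, were called higher. E2F7, a repressor, fell by 0.54 ± 0.10, and the activator E2F3 rose by 0.45 ± 0.07. Of 28 S phase replication genes 9 were higher and 3 lower, and with total counts 9 and 9. PCNA, the sliding clamp of DNA polymerases, rose by 0.60 ± 0.05, from 339 ± 63.3 to 512 ± 74.2 CPM. CCNE1, cyclin E1 of the entry into S phase, rose by 1.07 ± 0.13 and the licensing factor CDT1 by 0.49 ± 0.06.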

How the data were processed

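RNA-seq libraries of 8 control and 8 peroxide-treated Jurkat E6-1 samples were used, 1 table per library. The tables as deposited hold raw read counts by gene, in whole numbers. The submitters' processing notes name STAR 2.7.1a, HTSeq 0.6.1 and the build hg19, and do not name settings for strand or overlapping genes. The 5 rows that name no gene held 43.5% to 57.6% of the counted reads and were left out. Symbols were found for 60402 of 60662 identifiers (99.6%). No coordinates of genes are given, and promoter coordinates are those of the RefSeq windows on GRCh38.p14.

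Genes were kept with filterByExpr on the groups (14092 genes, 99.6% of reads in genes), given TMM factors and tested by quasi-likelihood in edgeR 4.0.16 (R 4.3.3), two-sided, with batch and group as terms. Interaction and control-batch differences came from a fit with batch, group and their product. P-values were adjusted by Benjamini-Hochberg over all tested genes. A log2 fold change is given with its SE (its size divided by the square root of F). Members and lists were chosen with earlier results of these data known, so counts are descriptions and no list was tested. All 40 members are named. Library values or their ranges are printed for the member with the smallest p and the one with the smallest fold change in each role. They are also printed for CDK1, CCNB1 and PLK1, and for members called between batches. From each other list, up to 3 genes are named, taken by p among those averaging at least 1 CPM. WEE1, NFYB, NFYC, the libraries of CKS2 and the genes named at the edges of the batch difference were added after their values were seen. Pairs of libraries of 1 group and batch differed by a chi-square per degree of freedom of 2.95 to 18.1, so all 16 were kept. On simulated counts of the peroxide comparison (13960 genes, 50 changed at each size), the test found 54.0% of those changed 1.25-fold, 96.0% of those changed 1.5-fold and 100% of those changed 2-fold, with 10 false calls among 185. For the interaction (13966 genes) it found 44.0% at 1.5-fold, and for the control batches (13962 genes) 74.0%. Far fewer genes were changed in these simulations than were called in the data, so the shares need not hold for the data. Alternatives were DESeq2 1.42.0, total counts, RLE factors, no filter, no batch term, a replicate block, each batch alone, the 8 controls alone, each library left out, the 2 libraries richest in reads without a unique alignment left out, and the share of reads without mitochondrially encoded genes.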

Additional observations from a re-analysis of the deposited data

Results flagged for a closer look

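The peroxide effect on 5 of the 40 genes differed between the 2 batches by the test of the difference itself (edgeR, Benjamini-Hochberg over all tested genes). The log2 fold change in batch 2 minus that in batch 1 was 0.51 for PLK1, 0.44 for BIRC5, 0.42 for CDC20, 0.49 for KIF20A and -0.51 for NDC80. Fitted in each batch alone, the log2 fold changes in batches 1 and 2 were -0.22 and 0.29 for PLK1, -0.23 and 0.21 for BIRC5, -0.15 and 0.28 for CDC20, -0.39 and 0.11 for KIF20A, and 0.32 and -0.19 for NDC80. Each has the opposite sign in the 2 batches. For each of them the control libraries of the batches also differed, by -0.65, -0.41, -0.65, -0.90 and 0.78 in the same order, and the part of that difference in the interaction was not tested. The 40 genes in 2 groups of 8 libraries gave 80 sets of values, and none had a highest or lowest library beyond the outlier limit of Dixon's test. In sets without a batch difference, chance alone would mark about 1 set in 20. Each set here pooled both batches, and a gap between batches widens the range that the test divides by. The test could therefore miss a library that was unusual within its own batch.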

How the results depend on the processing

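Without the batch term, 3 members were called higher and 3 lower. Over all genes 2534 were then higher and 2454 lower, in place of 3391 and 3418. In batch 1 alone 5 members and 2858 of all genes were higher. Without a filter on low counts, 5150 of all genes were higher. DESeq2 called the batch difference of the peroxide effect for 9 members and 1109 genes, against 5 and 688 by edgeR. With total counts, 2 members were higher in batch 2 controls than in batch 1 and 1857 of all genes were lower. Leaving out 1 library gave 7 to 10 members higher and 7 to 11 lower after peroxide, 2 to 7 members and 333 to 1229 genes for the difference between batches, and 1 to 2 members higher (2 without control 3) and 27 to 31 lower in the controls of batch 2. The gene count for the difference between batches was 448, 374, 395, 438 and 409 without control 1, 4, 5, 6 or 8, and 1229, 425 and 333 without peroxide 2, 4 or 5. With control 1 and peroxide 5 left out, the libraries richest in reads without a unique alignment, 8 members were higher and 10 lower. Over all genes 3194 were then higher and 3156 lower. RLE factors and DESeq2 each gave 10 members higher and 9 lower. Over all genes RLE factors gave 3405 and 3385, and DESeq2 gave 3446 and 3446.

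Signs that changed belong to genes near 0 or to single batches, and the cause was not tested. With total counts, the log2 fold changes were -0.028 for PLK1, -0.036 for AURKA, -0.012 for TTK, -0.033 for CENPA, -0.00057 for NDC80, -0.057 for KIF11 and -0.038 for HMMR. Without a filter they were -0.017 for PLK1, -0.025 for AURKA, -0.022 for CENPA, -0.046 for KIF11 and -0.027 for HMMR. In batch 1 alone they were -0.22 for PLK1, -0.088 for AURKA, -0.0067 for CDCA8, -0.15 for CDC20 and -0.12 for CENPA. In batch 2 alone they were 0.16 for CCNB1, 0.063 for AURKB, 0.045 for INCENP, 0.21 for BIRC5, 0.035 for BUB3, -0.086 for TTK, -0.19 for NDC80, -0.063 for KIF11, 0.11 for KIF20A and -0.025 for HMMR. With control 1 and peroxide 5 left out PLK1 was at -0.0090. Leaving out 1 library at a time gave -0.065 to 0.021 for CCNB1, -0.017 to 0.074 for PLK1, -0.051 to 0.031 for BIRC5, -0.044 to 0.11 for TTK, -0.060 to 0.015 for SPC25, -0.040 to 0.032 for KIF11 and -0.0040 to 0.053 for HMMR.

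The labels give both groups the replicate numbers 1 to 8, and nothing says that a number marks a shared culture. After removal of group and batch means, same-numbered libraries correlated at -0.15 to 0.17, and 4 of 8 matched best with their own number. With a replicate block 9 members were called higher and 9 lower, CDCA8 being the call lost, and KIF11 was at -0.00054. Over all genes the block gave 3313 higher and 3373 lower. Most members changed by less than 1.25-fold, the smallest size simulated, so the recovery of changes that small was not measured.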
